A study of Caenorhabditis elegans with 2 samples.

Results

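Chromatin immunoprecipitation and sequencing of the zinc finger transcription factor LSY-2, of the C2H2 class, was examined at 10 genes of the Wnt pathway of Caenorhabditis elegans. The genes, a list made with earlier results of these data known, were mig-5, bar-1, pop-1, lit-1, wrm-1, sys-1, lin-44, egl-20, mom-2 and cwn-1. All 10 were found among the 19973 protein-coding genes of the WBcel235 (ce11) annotation. Per the labels, the material was whole L1 larvae of mixed sex and unknown age that had been starved after bleaching. The strain was OP367, with the genotype unc-119(tm4063) III; wgIs367, in which lsy-2 carries an eGFP tag. There was 1 group of 2 biological replicates and no second condition, and the control sample named in the labels was not analysed here. The sources used here do not give the promoter that drives the tagged protein or the number of animals per replicate. Whole larvae were used, so a region bound in few cells and a region bound weakly in many cannot be told apart.

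Wnt proteins are secreted lipid-modified ligands that bind Frizzled and related receptors on neighbouring cells. The signal passes through Dishevelled proteins to β-catenins, which join TCF factors in the nucleus to switch target genes. In Caenorhabditis elegans the tasks of β-catenin are divided among several proteins. BAR-1 acts in a pathway much like that of other animals, whereas WRM-1, SYS-1, the Nemo-like kinase LIT-1 and the TCF factor POP-1 form the asymmetry pathway, which makes the daughters of many divisions different from each other. In the L1 larva the pathway is known for the migration of the Q neuroblast descendants and for the polarity of seam and tail cells.

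A gene window ran from 2000 bp upstream of the 5′ end to the 3′ end of the gene, and a gene was called when the summit of a thresholded peak lay in it. Signal is the authors' value per region in arbitrary units, comparable within a list only. Of the 10 genes, 5 had a thresholded summit, with 9 summits in all, and of all protein-coding genes 30.4% had at least 1. The genes with a summit were mig-5, wrm-1, sys-1, pop-1 and lit-1, all of which act inside the receiving cell. The 4 ligand genes had none, and nor did bar-1, which also acts inside the receiving cell. Near the 5′ end, between 1000 bp before it and 200 bp after it (the promoter window), 4 of the 10 had a summit, against 21.1% of all genes. A region of the pooled list, which holds background as well as peaks, lay in 7 of the 10 windows, against 49.9% of all gene windows. Long genes offer more room for a summit. Among genes under 5000 bp, 3 of the 8 in the list had a summit, against 26.6% of all such genes. The 1 gene between 5000 and 10000 bp, pop-1, and the 1 gene above 10000 bp, lit-1, each had at least 1, where 46.6% and 58.9% of all genes of those lengths did. With 1 group and a list named with earlier results of these data known, no test of these counts was made.

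**Figure D1:**
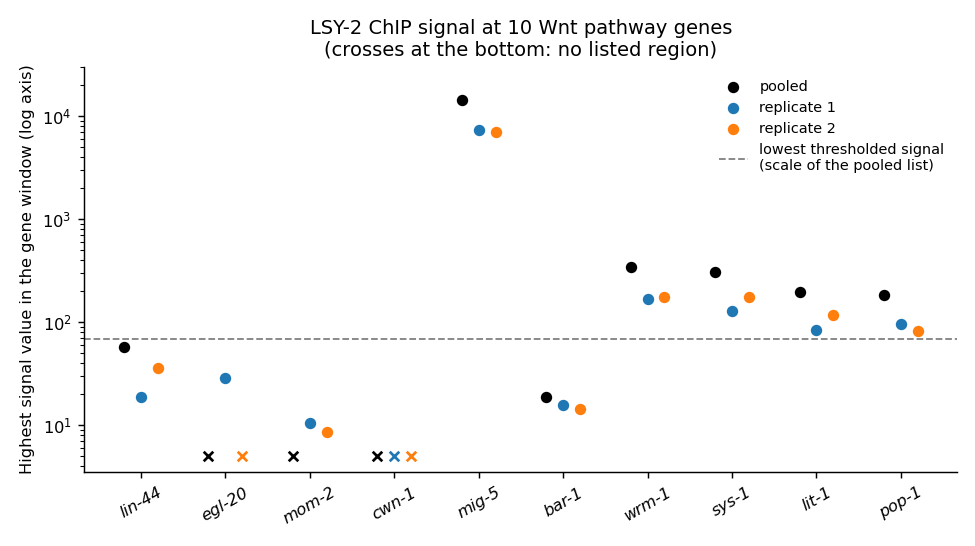
Highest signal value in the window of each of the 10 genes, on a log axis, in the pooled list (black), replicate 1 (blue) and replicate 2 (orange), with ligand genes on the left. Crosses mark lists with no region, the dashed line is the lowest thresholded signal of 68.8 on the scale of the pooled list, and mig-5 stands above every other gene at 14134.

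None of the 4 ligand genes had a thresholded summit, and their regions in the other lists ranged from none to a pooled signal of 57.9. LIN-44, which orients cells of the tail, EGL-20, which directs Q neuroblast migration, MOM-2, which polarises early blastomeres, and CWN-1 are 4 of the 5 Wnt ligands of the worm. lin-44 (chrI:4126056-4129310, plus strand) had no thresholded summit, and its strongest pooled region, at −1144 bp relative to the 5′ end, had a signal of 57.9. That value ranked 7771 of 30000 in the pooled list, where the lowest thresholded signal was 68.8. The region had a signal of 18.96 in replicate 1 and, with its summit at −1099 bp, of 35.6 in replicate 2. A second pooled region of lin-44, at −117 bp, had a signal of 45.5. Near it, replicate 2 had its highest lin-44 region, 35.8 at −15 bp. Replicate 1 had only 11.2 at −197 bp and 8.83 at +2 bp there. egl-20 (chrIV:9812357-9815532, minus strand) had a single region, in replicate 1 at −1803 bp with a signal of 28.5, and none in replicate 2 or in the pooled list. mom-2 (chrV:8355988-8358185, plus strand) had a region of 10.5 at −531 bp in replicate 1 and one of 8.69 at +1876 bp in replicate 2, at different places and close to the lowest values of those lists, 8.73 and 7.60 respectively. cwn-1 (chrII:130983-133598, minus strand) had no region in any of the 4 lists, as was the case for 41.8% of all protein-coding genes in the pooled and replicate lists. The gene with the nearest divergent 5′ end, K10B4.1, lay 1868 bp from that of cwn-1. The remaining ligand gene, cwn-2, had no thresholded summit and no pooled region either, so that 0 of 5 ligand genes were called. The difference from the 26.6% among genes under 5000 bp was not tested.

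**Figure D2:**
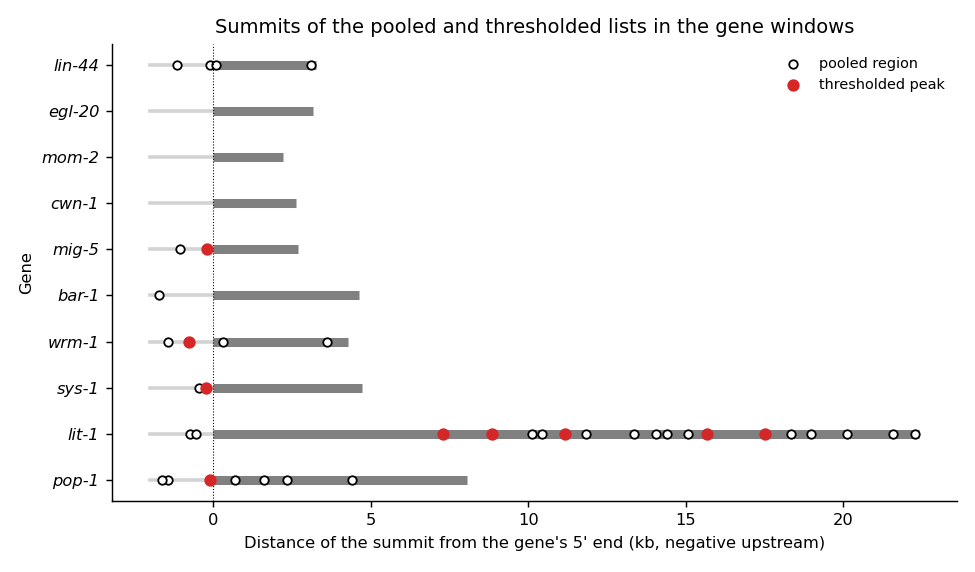
Position of each summit relative to the 5′ end of its gene, in kb, with the gene as a grey bar and the 2000 bp upstream as a light line. Open circles are regions of the pooled list and red circles thresholded peaks, which lie upstream of mig-5, wrm-1, sys-1 and pop-1 and inside lit-1.

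mig-5, which encodes 1 of the 3 Dishevelled proteins, had by far the strongest peak. Its signal was 14134 in the thresholded list, 7225 in replicate 1 and 6940 in replicate 2, and it ranked 11 of 6850, 10 and 13 in the 3 lists. The values of the replicates differed by a log2 ratio of −0.06. The peak (chrII:8184954-8185468) had its summit at 8185211 in the thresholded list and in replicate 1, and 2 bp away in replicate 2. The promoter is shared. The summit lay at −188 bp of mig-5 (chrII:8182323-8185023, minus strand) and at −232 bp of cct-1 (chrII:8185443-8187601, plus strand), a gene for a subunit of the cytosolic chaperonin. The 5′ ends of these divergent genes are 420 bp apart, and the peak covers both, so the data do not assign it to either. Its neighbours by signal were the peak of eef-1A.1 and rfc-4 at 14270 and that of F55A11.1 and syx-5 at 14822 above it, and those of rpl-11.2 at 14060 and of gmps-1 and cap-2 at 13382 below it. Next to it by rank, these genes include a translation elongation factor and a ribosomal protein. The remaining pooled region in the window, at −1054 bp, had a signal of 28.6. The sequence around the summit is shown since it is the strongest binding in the set. It covers chrII:8185111-8185311 of ce11 from the RefSeq genome, on the minus strand, so that mig-5 lies to the right, with the summit as its middle base:
mig-5 summit: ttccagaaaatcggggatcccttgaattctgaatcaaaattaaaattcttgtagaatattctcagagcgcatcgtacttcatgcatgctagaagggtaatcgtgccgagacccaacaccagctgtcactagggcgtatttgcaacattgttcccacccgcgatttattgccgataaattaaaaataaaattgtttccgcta

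wrm-1 and lit-1 encode partners, a β-catenin and the kinase that it activates, which together lower nuclear POP-1. wrm-1 (chrIII:5722850-5727115, plus strand) had 1 thresholded peak, at −782 bp, with a signal of 344 in the thresholded list, 166 in replicate 1 and 175 in replicate 2. It ranked 1702, 1663 and 1780 in these lists, so that both replicates placed it alike, with summits at most 1 bp from that of the thresholded list. No other protein-coding gene had this summit in its promoter window, and the promoter window of wrm-1 held no other pooled region. The highest of its other pooled regions, at −1443 bp, had a signal of 24.2. In the sequence at the wrm-1 summit (chrIII:5722018-5722118, plus strand, middle base the summit), capitals mark the GATA factor word TGATAA, here on the opposite strand:
wrm-1 summit: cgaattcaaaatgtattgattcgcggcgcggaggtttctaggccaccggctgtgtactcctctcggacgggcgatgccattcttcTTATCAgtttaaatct

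lit-1 (chrIII:13701991-13724404, plus strand) is 22414 bp long and held 5 thresholded summits, all inside the gene and none in its promoter window. Of all protein-coding genes, 0.36% had 5 or more thresholded summits in the window, and of those of 10000 bp or more 6.01% did. The strongest, at +15677 bp, had a signal of 196, with 84.3 in replicate 1 and 117 in replicate 2. The peak at +17527 bp had a signal of 114, with 30.2 and 79.4 in the replicates. The peak at +7307 bp had a signal of 110, with 27.3 and 80.4. In these 3 peaks replicate 2 was the higher, as it was in the remaining 2. The peak at +8865 bp had a signal of 77.2, with 32.6 and 49.0 in the replicates, and that at +11182 bp 76.4, with 27.9 and 49.7. Both lay just above the lowest thresholded signal of 68.8. Of the 5 summits, 4 were in introns and that at +17527 bp was in the 5′ UTR of a shorter transcript.

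**Figure D3:**
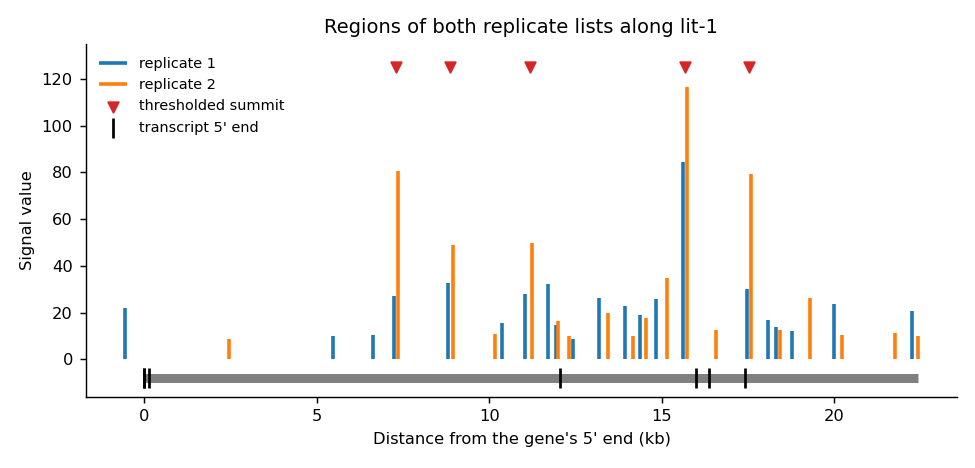
Signal value of every region of the replicate lists along lit-1 (replicate 1 blue, replicate 2 orange), against the distance from the 5′ end in kb. Red triangles mark the 5 thresholded summits and black ticks the transcript 5′ ends, with the highest bar, 117 in replicate 2, just before the transcript start at 15974 bp.

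The annotation gives lit-1 7 transcript starts, which lie at the 5′ end, 2 and 150 bp from it, and at 12054, 15974, 16368 and 17405 bp. Measured from the nearest of these, 3 summits lay in a promoter window. A gene with more starts offers more promoter windows, and the share of all genes under this rule was not taken. The summit at +15677 bp was at −297 bp of the start at 15974 bp, that at +11182 bp at −872 bp of the start at 12054 bp, and that at +17527 bp 122 bp past the start at 17405 bp. The other 2 were at −4747 and −3189 bp of the nearest start, that at 12054 bp. At the gene's own 5′ end there were 2 pooled regions, at −749 and −545 bp, with signals of 17.4 and 15.0. For the 2 strongest summits, at +15677 and +17527 bp, the nearest gene 5′ end, without regard to the inner starts, was that of W06F12.2. When the summits were given only to the gene with the nearest 5′ end, 3 summits were counted for lit-1, and without replicate 2 the count was 1. The sequences at 3 of the summits are shown to set the 2 strongest, both near an inner start, beside that with a TCF word. That of the summit at +11182 bp, also near an inner start, is not shown. They are on the plus strand of ce11, at chrIII:13710806-13710906, chrIII:13717618-13717718 and chrIII:13719468-13719568, with the summit as the middle base. Capitals mark the word CTTTGAA of TCF factors on the opposite strand in the first and the word GAGAGA on the opposite strand in the second, and the third holds none of the words searched:
lit-1 at +8865: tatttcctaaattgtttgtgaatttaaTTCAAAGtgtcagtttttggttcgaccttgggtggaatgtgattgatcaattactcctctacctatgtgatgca
lit-1 at +15677: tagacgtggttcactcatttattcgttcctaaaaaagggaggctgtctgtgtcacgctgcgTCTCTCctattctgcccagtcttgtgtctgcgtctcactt
lit-1 at +17527: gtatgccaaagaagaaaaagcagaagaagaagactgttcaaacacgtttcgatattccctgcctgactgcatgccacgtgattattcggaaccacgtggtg

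sys-1 and pop-1 encode the nuclear end of the asymmetry pathway, a divergent β-catenin and the TCF factor to which it binds as a coactivator. sys-1 (chrI:9980063-9984794, minus strand) had 1 thresholded peak, at −246 bp, with a signal of 303, and of 129 in replicate 1 and 177 in replicate 2. Its summit was 51 bp away in replicate 2 and at the same base in replicate 1. pop-1 (chrI:2822243-2830311, minus strand) had 1 thresholded peak, at −121 bp, with a signal of 183, and of 95.9 in replicate 1 and 82.4 in replicate 2. The annotation places the non-coding RNA gene W10C8.14 over this summit. A further 6 pooled regions lay in the window of pop-1, and the strongest of them, at −1429 bp, had a signal of 51.4. Neither promoter window was shared with another protein-coding gene at these summits.

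The remaining β-catenin genes differed from each other. bar-1 (chrX:7166005-7170625, minus strand), which acts downstream of EGL-20 in the Q neuroblast lineage, had no thresholded summit. Its only pooled region, at −1738 bp, had a signal of 18.8 and ranked 22317 of 30000, and the highest regions in the replicates had 15.6 and 14.3. hmp-2, the β-catenin of adherens junctions and not in the list of 10, had a thresholded peak of 412 at −1378 bp, with 173 and 238 in the replicates. That summit lay in the promoter window of K05C4.7, whose 5′ end was the nearest. Of the 4 β-catenin genes, all under 5000 bp, 3 thus had a thresholded summit in the window, against 26.6% of all genes of that length. In 2 of the 4 it lay in the gene's own promoter window, against 21.1% of all genes. These counts were not tested.

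The order of the genes by their strongest peak was mig-5, wrm-1, sys-1, lit-1 and pop-1, but not every step exceeded the replicate error. Across the 6616 thresholded peaks with a region in both replicates, the values of replicate 2 over those of replicate 1 had a median log2 ratio of 0.20, with an SD of 0.52, or 1.43-fold. The signal of mig-5 was 41.0 times that of wrm-1, and 43.4 and 39.7 times in the replicates. wrm-1 and sys-1 differed 1.14-fold in the thresholded list, and their order turned between the replicates, where the ratio was 1.29 and 0.99. sys-1 exceeded lit-1 1.55-fold, and by 1.53-fold and 1.51-fold in the replicates. lit-1 and pop-1 differed 1.07-fold, with ratios of 0.878 and 1.42 in the replicates, so that their order turned as well. The steps from wrm-1 to sys-1 and from lit-1 to pop-1 were thus smaller than the 1.43-fold spread and not kept by both replicates. The step from mig-5 to wrm-1 was far beyond that spread. The spread is that of single peaks, whereas a step compares 2 peaks, so it is only a rough measure. The step from sys-1 to lit-1 kept its order in both replicates, but its 1.55-fold is too near 1.43-fold to be called beyond the replicate error.

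**Figure D4:**
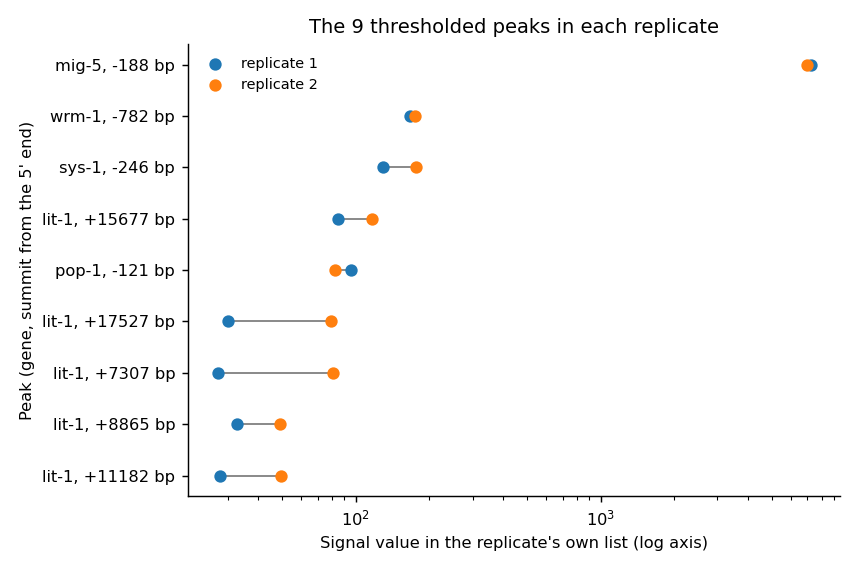
Signal value of the 9 thresholded peaks in the list of replicate 1 (blue) and replicate 2 (orange) on a log axis, ordered by thresholded signal, with each peak named by its gene and summit position. The points of mig-5 and wrm-1 nearly coincide, and those of lit-1 at +7307 bp, 27.3 and 80.4, are farthest apart.

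The replicates were compared peak by peak. On the log2 scale, replicate 2 over replicate 1 was −0.06 for mig-5, −0.22 for pop-1, 0.07 for wrm-1 and 0.45 for sys-1, each within 1 SD of the median over all peaks. For lit-1 it was 1.56 at +7307 bp, 1.39 at +17527 bp, 0.83 at +11182 bp, 0.59 at +8865 bp and 0.47 at +15677 bp. Of these 5 peaks, the first 3 lay more than 1 SD from the median over all peaks, and those at +8865 and +15677 bp lay within 1 SD, closer to it than pop-1. The highest of these exceeded the ratios of 98.7% of all thresholded peaks, and that at +17527 bp those of 98.1%. All but the peak at +15677 bp are among the 2205 weakest of the matched peaks, where the SD was 0.67 around a median of 0.23. Against these weak peaks, that at +11182 bp lay within 1 SD of the median, and those at +7307 and +17527 bp did not. In replicate 2 all 5 lit-1 peaks ranked among the 6850 strongest regions, and in replicate 1 only that at +15677 bp did, at rank 3257. The cause of the difference was not tested.

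Within 50 bp of the 9 summits, 1 window held a TCF word, CTTTGAT or CTTTGAA on either strand, where 3.21% of all 6850 thresholded summit windows did. The GATA word TGATAA was in 1 of the 9, against 7.17%, and the word GAGAGA in 2 of the 9, at lit-1 and sys-1, against 28.1%. Within 150 bp the counts, in the same order, were 2, 2 and 5 of 9, against 11.7%, 23.1% and 48.0%. CTTTGAT and TGATAA can share bases, but the TCF match within 50 bp was CTTTGAA. With 9 windows these shares are a description and were not tested. The GC content within 50 bp of the summits ran from 34.7% at lit-1 +8865 bp to 56.4% at lit-1 +11182 bp, where the quartiles over all thresholded summits were 38.6% and 49.5%. The windows of mig-5, pop-1 and sys-1 each had 47.5%.

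Outside the 10 genes, a list of 33 further pathway genes was described in the same way, and 18 of them had a thresholded summit in the window, against 30.4% of all genes, and 10 in the promoter window, against 21.1%. By gene length these were 9 of 17 genes under 5000 bp, against 26.6% of all such genes, 6 of 11 between 5000 and 10000 bp, against 46.6%, and 3 of 5 above, against 58.9%. The counts by role are of few genes, describe those genes and were not tested. Among the other genes for Dishevelled, both were called. dsh-2 had a signal of 346 at −198 bp, with 167 and 178 in the replicates, and dsh-1 91.2 in an intron, with 28.1 and 61.6. All 3 Dishevelled genes thus had a thresholded summit, against 30.4% of all genes. Those of mig-5 and dsh-2 were in the promoter window, against 21.1%, and the promoter of mig-5 is shared with cct-1. dsh-1 is 10985 bp long, and 58.9% of all genes of 10000 bp or more had a summit.

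Genes of Wnt secretion had thresholded summits in 3 of 4 cases, against 30.4% of all genes, and in the promoter window also in 3, against 21.1%. snx-3, a sorting nexin gene of Wntless recycling, had the strongest at 2957, with 1432 and 1526 in the replicates, at a summit in the promoter window of rad-54.L as well, whose 5′ end was nearer. mom-1, the Porcupine gene for the lipid modification of Wnt, had 955 in an intron at +3448 bp, with 421 and 526 in the replicates, where the 5′ end of cest-16 was nearest. vps-35, a retromer gene, had 223 at −145 bp, with 108 and 112. mig-14, the Wntless gene itself, had none, and its highest pooled region had a signal of 22.8.

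Receptor genes had a thresholded summit in 2 of 6 cases, which is close to the 30.4% of all genes, and in no promoter window, against 21.1%. They were lin-17, a Frizzled gene, with 111, and cam-1, a Ror kinase gene, with 105, both in introns of genes above 10000 bp. The Frizzled genes mig-1, mom-5 and cfz-2 had none, nor did lin-18, a Ryk gene. The highest pooled regions of mom-5, 66.7, and lin-18, 60.6, were close to the lowest thresholded signal of 68.8. sfrp-1, which encodes a secreted antagonist, had no thresholded summit and a pooled region of 44.2.

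In the destruction complex, which marks β-catenin for breakdown, 3 of 5 genes were called, against 30.4% of all genes and 46.6% of those between 5000 and 10000 bp. kin-19, a casein kinase gene, had a signal of 596 at −1160 bp, with 225 and 373 in the replicates. The Axin gene pry-1 had 126 at −1932 bp and 3 summits in all, and the APC-related gene apr-1 had 80.0 at −1289 bp, where the 5′ end of K04G2.7 was nearest. gsk-3 and the Axin gene axl-1 had none. Of the activators of LIT-1, mom-4 had a signal of 91.3 at +65 bp, in a promoter shared with lsl-1, and tap-1 had none. Of 3 planar polarity genes only vang-1 was called, with 69.2 at the 3′ UTR, where the 5′ end of B0410.3 was nearest, and prkl-1 and fmi-1 were not. The corepressor gene unc-37 had 282 at −250 bp, with 107 and 168 in the replicates.

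Genes known as targets of the pathway were called in 4 of 7 cases, against 30.4% of all genes. The Hox genes mab-5 and lin-39 each had 4 thresholded summits, with highest signals of 444 and 418 in introns. In the replicates these had 211 and 238 for mab-5 and 188 and 228 for lin-39. Both genes are between 5000 and 10000 bp long, where 46.6% of all genes had at least 1 summit. The share of all genes with 4 or more was not taken. At the strongest mab-5 summit, +4757 bp, the nearest 5′ end was that of bath-15. ceh-22 had 102 at +2239 bp and egl-5 92.7 at +11 bp. psa-3, end-1 and end-3 had none, and the latter 2, endoderm genes of the embryo, had no pooled region.

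**Figure D5:**
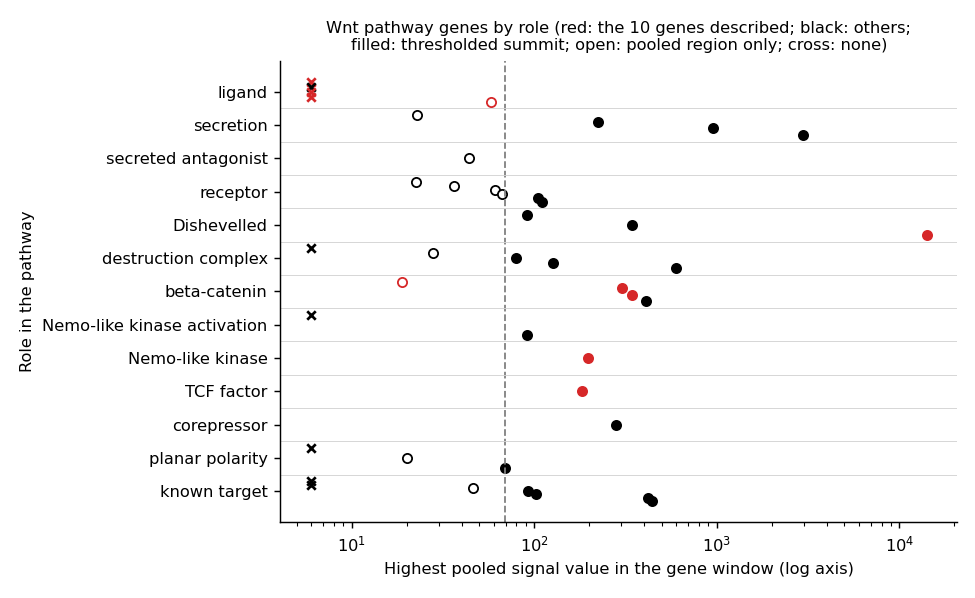
Highest pooled signal value in the window of each of the 43 pathway genes, on a log axis, by role. Red marks the 10 genes described and black the others, filled points have a thresholded summit, open points a pooled region only and crosses none, and the dashed line is the lowest thresholded signal of 68.8, which none of the 5 ligand genes reaches.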

How the data were processed

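The data were transcription factor ChIP-seq peak lists of 2 biological replicates in 1 group, from DNA fragments of 150 to 350 bp per the labels. Per the README texts deposited with the samples, the authors made a list of peaks and background for each replicate with a control, a pooled list, and from these 3 a list thresholded by irreproducible discovery rate. The aligner and peak caller are not given in the sources used, and the depth is unknown. Signal per region is the authors' value and its scaling is not stated, so no counting error is given. The deposited −log10 q-value is at its highest, 4.19, in every thresholded peak and was not used to rank. The ce10 lists were not used here.

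Summits (start plus offset) were assigned to Ensembl release 115 genes with pandas 2.3.3 in Python 3.11.15, and coordinates are 1-based. A replicate region matched a peak when its summit lay within 100 bp. Sequences came from the RefSeq WBcel235 genome. Window rules were tested on simulated data. All 10 genes are described. Genes sharing a summit, up to 3 called and up to 3 uncalled genes per role, and the 2 peaks above and below the strongest are also named, by rule. Members and lists were chosen with earlier results of these data known. No p-values are given.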

Additional observations from a re-analysis of the deposited data

How the results depend on the processing

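The same 5 genes had a thresholded summit under all 7 alternatives, which were upstream limits of 1000 and 5000 bp, the 3425 strongest thresholded peaks, overlap in place of summits, the nearest 5′ end only, and each replicate's 6850 strongest regions alone. The 9 summits became 5 among the 3425 strongest peaks. They ran from 5 without replicate 2 to 9 without replicate 1, all the loss being at lit-1. The number of summits was 7 with the nearest 5′ end only, 10 with overlap and 11 with the limit of 5000 bp. It stayed at 9 with the limit of 1000 bp. The 18 further pathway genes became 9 among the 3425 strongest peaks and 13 with the nearest 5′ end only. Their count was 15 with the limit of 1000 bp, 24 with 5000 bp, 19 with overlap and 17 without either replicate. The share of all protein-coding genes, 30.4%, was 25.6% with the limit of 1000 bp, 40.2% with 5000 bp, 20.6% with the 3425 strongest peaks, 31.9% with overlap and 21.3% with the nearest 5′ end. The share of the genes' summit windows with a TCF word ran from 0% without replicate 2 to 11.1% without replicate 1. The count of 4 genes with a promoter summit was 3 with 500 bp upstream to 100 bp downstream, where wrm-1 was lost. From any transcript start it was 5, where lit-1, with its 7 starts, was gained. The share of all genes was not taken under either of these rules, so 21.1% is not the measure for them. The median log2 replicate ratio over the 9 peaks of the 10 genes, 0.47, was 0.07 over the 5 of them among the 3425 strongest peaks. No paired analysis was possible because there is 1 group. Depth is unknown, so a missing region does not show a lack of binding.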
